A study of Mus musculus with 46 samples.

Results

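The subject is how the liver of virgin mice differed after repeated use of a particle-free sunscreen base on the skin. The arrays of 6 mice that received the base (formulation) were set against those of 6 untreated mice. The titles alone chose these 12 arrays, 12 of 46 in the series, and no measured value was used. All mice were SKH:QS, a hairless laboratory stock, and each array holds the liver RNA of 1 mouse. The base is the sunscreen without its zinc oxide, applied 6 times within 4 days, and the liver was collected on day 5 after Xylase and ketamine and cervical dislocation. Each mouse was housed alone with free food and water. Collars against licking stand in the protocol shared by all mice, and the labels do not give the age of the mice or say separately whether untreated mice wore collars. No mock application is described for the untreated mice, so the base cannot be told apart from the handling that came with it. Virgin mice given the same sunscreen with 68ZnO microparticles (micro ZnO, 6) or nanoparticles (nano ZnO, 6) share the fit and serve one later comparison. Pregnant mice given formulation (6) or left untreated (5), killed at about day 17 of gestation, serve another.

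As background, the liver answers the cytokines IL-6 and IL-1 by making acute-phase proteins, a set of secreted plasma proteins led in mice by the serum amyloid A and orosomucoid families. Immediate early genes, such as Fos, Jun and Egr1, are transcribed within minutes of many stimuli without new protein synthesis. Metallothioneins bind zinc and are induced by zinc through the factor MTF1, and also by glucocorticoids and IL-6. The pattern of growth hormone release sets the male-biased and female-biased gene sets of mouse liver.

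Values are log2 intensities after RMA, so a difference of 1 stands for a 2-fold change, and the value after ± gives the standard error of a change, or the SD where that is named. A gene was called at a Benjamini-Hochberg adjusted p under 0.05 in a limma fit over all probe sets. Of 23410 probe sets 6203 were called (26.5%), 2690 higher (11.5%) and 3513 lower (15.0%) in formulation livers. With 1 probe set for each of 19938 genes, 2312 genes (11.6%) were higher and 2928 (14.7%) lower. All 6 formulation arrays lay above all 6 untreated arrays for 547 genes (2.74%) and below them for 1287 (6.46%). The calls depended on signal. Among the 3988 brightest genes 4.96% were called higher and 40.3% lower, with a median change of -0.17, while among the 3988 genes in the middle of the signal range 19.8% were higher and 6.95% lower. The interquartile range of an array, the width of its own distribution of values, ran from 2.76 to 2.89 (median 2.84) in formulation livers, against 2.90 to 3.09 (median 2.96) in untreated livers. The mean width differed by -0.14 in formulation livers and the groups did not overlap (exact two-sided permutation test, p = 0.00216, the smallest that 6 against 6 can give). Width and group therefore moved together, and with the width of each array as a covariate 179 probe sets were called. After a further quantile normalization of the arrays 3971 were. Counts with that covariate are given beside each gene group. Of the 101 called genes named in what follows, 37 were also called with it. Formulation replicate 5 was the array whose absence lowered the count most, to 4344 probe sets. Liver identity itself was in place: Alb, serum albumin, read 13.76 to 13.88 (median 13.84) in formulation livers and 13.79 to 13.92 (median 13.88) in untreated livers, and the hepatocyte factor Hnf4a read 9.68 to 10.14 (median 9.98) and 9.59 to 10.04 (median 9.70) in the same order. These ranges overlapped and neither gene was called.

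**Figure D1:**
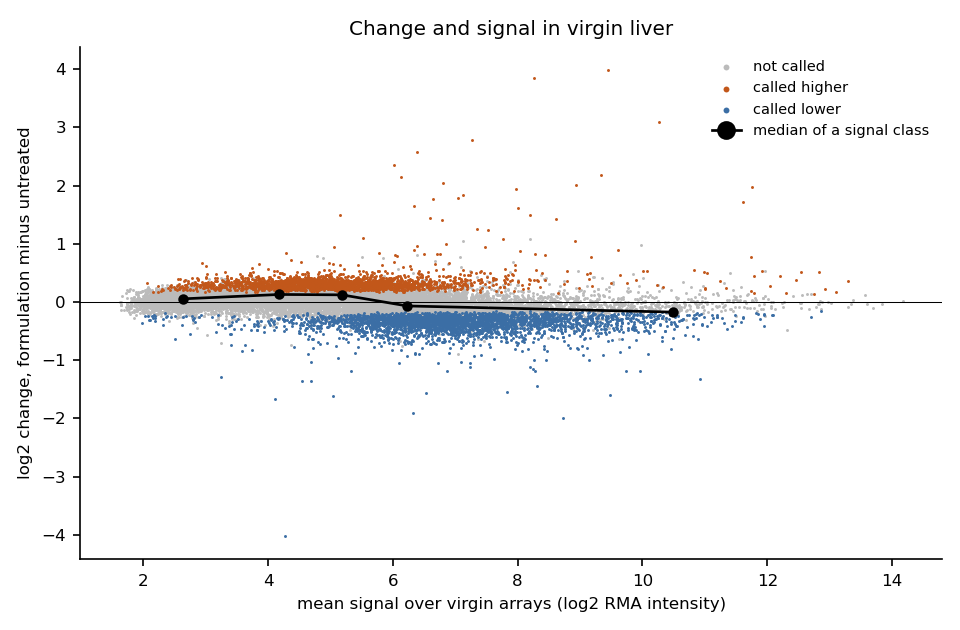
Log2 change of each of 19938 genes, formulation minus untreated, against the mean log2 signal of the gene over the virgin arrays. Called genes are coloured, and the black line joins the medians of 5 equal signal classes, which run from 0.05 at the dim end to -0.17 at the bright end.

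Many acute-phase plasma proteins were raised. Of 29 measured genes 17 rose (58.6%) and 1 fell (3.45%), with a median change of 0.44 against 0.03 over all genes. Their median member lies among the brightest genes, of which 4.96% were called higher and 40.3% lower. Saa2, a serum amyloid A apolipoprotein, read 7.93 to 12.31 (median 11.09) in formulation livers, against 6.01 to 7.58 (median 6.84) in untreated livers, a change of 3.98 ± 0.55 (15.8-fold, adjusted p = 4.08e-05). Saa1, its close paralog, read 6.41 to 10.86 (median 9.83) in formulation livers and 4.89 to 6.29 (median 5.76) in untreated livers, a change of 3.84 ± 0.52 (adjusted p = 3.58e-05). Neither gene overlapped between the groups, but formulation replicate 4 was the lowest treated array for both, close to the highest untreated array. Without it the changes were 4.56 ± 0.45 for Saa2 and 4.45 ± 0.39 for Saa1. Orm2, an orosomucoid that carries lipophilic compounds in plasma, read 9.53 to 11.69 (median 11.45) in formulation livers, against 7.01 to 8.72 (median 8.27) in untreated livers, and rose by 3.08 ± 0.30 (adjusted p = 4.48e-07). Formulation replicate 4 was again the lowest treated array, and all treated arrays lay above all untreated arrays. Saa3, the serum amyloid A also made outside hepatocytes, rose by 2.04 ± 0.46 (adjusted p = 0.00244). Its formulation values spanned 6.45 to 9.98 (median 7.37), with replicate 2 the highest. Lcn2, lipocalin 2, which withholds iron from bacteria, rose by 2.01 ± 0.37 (adjusted p = 5.48e-04). Saa1 and Saa2 are near-identical in sequence, so their probe sets may share signal.

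Other members of the list rose by less than Saa1, Saa2 and Orm2. Orm3 rose by 1.23 ± 0.21, and the groups overlapped because formulation replicate 4 lay level with the upper untreated arrays. Hp, haptoglobin, which binds free haemoglobin, read 12.67 to 13.34 (median 12.97) in formulation livers and 12.34 to 12.64 (median 12.43) in untreated livers and rose by 0.52 ± 0.09 (adjusted p = 3.15e-04) without overlap. Orm1, a further orosomucoid, rose by 0.45 ± 0.11 (adjusted p = 0.0063), and its groups overlapped. Hpx, hemopexin, which carries heme, rose by 0.36 ± 0.06. With array width as a covariate 9 members were called higher and 0 lower, and Orm2 kept a change of 2.87 ± 0.42 (adjusted p = 0.00252), Saa1 of 3.73 ± 0.75 (adjusted p = 0.0153) and Saa2 of 4.19 ± 0.79 (adjusted p = 0.0104).

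**Figure D2:**
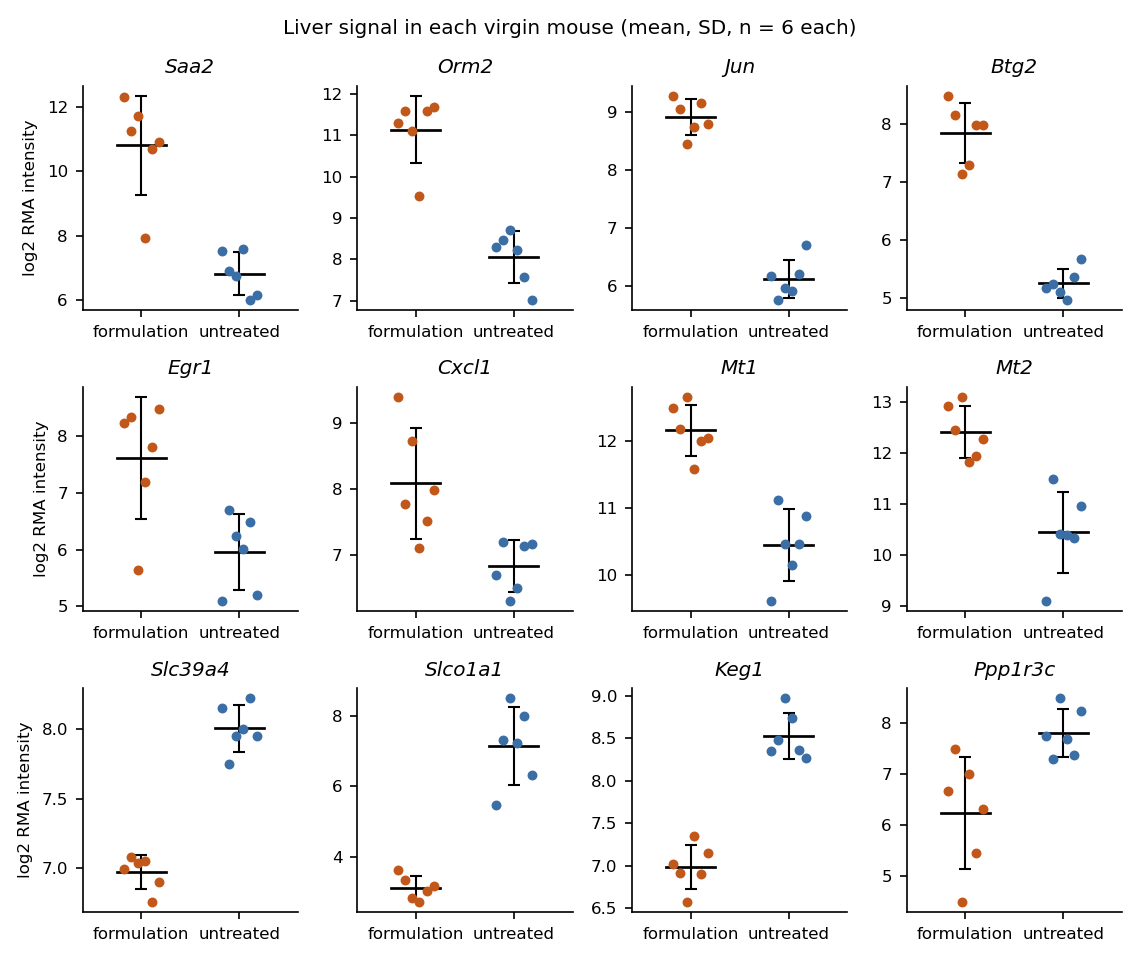
Log2 RMA intensity of 12 genes in each array, the 6 formulation arrays on the left of each panel and the 6 untreated arrays on the right, with a bar at the group mean and an error bar of SD. The groups lie apart for Saa2, Orm2, Jun, Btg2, Mt1, Mt2, Slc39a4, Slco1a1 and Keg1 and overlap for Egr1, Cxcl1 and Ppp1r3c.

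The promoter windows of Saa2, which had the largest rise, and of Orm2, from the orosomucoid family, are shown. They are mouse RefSeq windows of GRCm38.p6 that hold the 250 bases before the annotated start site. Capitals mark matches on either strand to the C/EBP motif TTNCNCAA.
Saa2, chr7:46751583-46751832, strand +: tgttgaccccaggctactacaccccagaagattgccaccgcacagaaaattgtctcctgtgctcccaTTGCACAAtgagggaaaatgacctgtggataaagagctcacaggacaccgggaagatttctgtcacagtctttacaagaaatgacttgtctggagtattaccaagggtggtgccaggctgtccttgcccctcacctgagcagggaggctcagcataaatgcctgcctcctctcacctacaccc
Orm2, chr4:63362199-63362448, strand +: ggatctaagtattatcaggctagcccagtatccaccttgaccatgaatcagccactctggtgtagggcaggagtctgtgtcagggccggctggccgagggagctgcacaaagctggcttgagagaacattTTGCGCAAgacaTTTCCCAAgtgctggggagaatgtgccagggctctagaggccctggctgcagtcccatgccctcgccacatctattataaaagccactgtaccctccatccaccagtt
The Saa2 window held 1 match and the Orm2 window 2, and 11.7% of 32851 promoter windows of this length hold the motif. The window of Saa1, which rose by more than Orm2, is not printed and held 2 matches. A match is a run of letters and marks no proven site.

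The signalling genes upstream of these proteins were called in few cases. In the IL-6 and IL-1 signalling list 4 of 27 genes rose and 5 fell (14.8% and 18.5%), near the 11.6% and 14.7% over all genes. Cebpb, the bZIP factor that binds acute-phase promoters, read 7.91 to 8.89 (median 8.36) in formulation livers and 7.28 to 7.69 (median 7.55) in untreated livers and rose by 0.88 ± 0.14 (adjusted p = 1.40e-04), with no overlap. Socs3, the feedback inhibitor of IL-6 receptor signalling, rose by 0.50 ± 0.11 (adjusted p = 0.00187), and Il1b, interleukin 1 beta, by 0.52 ± 0.19 (adjusted p = 0.0439). Formulation replicate 3 was the highest array for Il1b, the groups overlapped, and without that array the change was 0.28 ± 0.13 and was not called (adjusted p = 0.0972). The Il1b call also ended without formulation replicate 4 or 5 or untreated replicate 2, 3, 4 or 5, one at a time (changes of 0.28 to 0.64 over all arrays left out). Lifr, the receptor of leukaemia inhibitory factor, fell, with a change of -0.81 ± 0.15 (adjusted p = 6.10e-04) and no overlap, and Il1rap, the co-receptor of IL-1, changed by -0.50 ± 0.10. Of 21 NF-kB subunits and feedback genes 3 rose (14.3%) and 2 fell (9.52%). In the signal class of their median member 11.5% of genes were called higher and 22.6% lower. Ikbkg, the scaffold NEMO of the IkB kinase, changed by -0.37 ± 0.09, and Tlr4, the endotoxin receptor, changed by -0.45 ± 0.10. The NF-kB count was 3 without formulation replicate 3 or 5 or untreated replicate 1 or 6, and 8 without formulation replicate 4. Of 20 chemokines 4 rose (20%) and 0 fell, near the 19.8% called higher in the middle signal class, where their median member lies. The largest of these rises was that of the neutrophil attractant Cxcl1 at 1.26 ± 0.28 (adjusted p = 0.00236). Cxcl1 read 7.10 to 9.40 (median 7.88) in formulation livers and 6.29 to 7.20 (median 6.91) in untreated livers. Replicates 1 and 3 were its highest treated arrays and replicate 4 lay within the untreated range. The chemokine count was 1 without untreated replicate 3 and 2 without formulation replicate 4, 5 or 6 or untreated replicate 6. Adjusted for array width, the calls numbered 1 higher and 0 lower for IL-6 and IL-1 signalling, 1 and 0 for NF-kB, and 0 and 0 for chemokines.

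Immediate early genes were raised in number. Of 15 AP-1 and related bZIP genes 13 rose (86.7%) and 0 fell (median change 0.39). Of 32 other immediate early genes 18 rose (56.2%) and 1 fell (median change 0.30). In the signal class of the median member of both lists 11.5% of genes were called higher and 22.6% lower. Jun, a core AP-1 subunit, read 8.44 to 9.27 (median 8.92) in formulation livers, against 5.75 to 6.71 (median 6.07) in untreated livers, a change of 2.79 ± 0.29 (6.92-fold, adjusted p = 9.91e-07). Fos, its usual partner, read 5.91 to 8.45 (median 7.71) and 4.89 to 5.82 (median 5.55) in the same order and rose by 2.14 ± 0.31 (adjusted p = 5.87e-05). The groups of both genes lay apart, but formulation replicate 3 stood well below the other treated arrays for Fos. Atf3, a stress-induced repressor of the same superfamily, rose by 2.36 ± 0.24 (adjusted p = 8.63e-07), Junb by 0.90 ± 0.18 and Jund by 0.64 ± 0.12.

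Btg2, an antiproliferative gene that also responds to p53, read 7.13 to 8.47 (median 7.98) in formulation livers and 4.96 to 5.67 (median 5.21) in untreated livers and rose by 2.58 ± 0.25 (adjusted p = 4.48e-07). Dusp1, a phosphatase that switches off MAP kinases, rose by 1.94 ± 0.30 (adjusted p = 1.23e-04). Plk3, a polo-like kinase, rose by 1.84 ± 0.28, with formulation replicate 3 the highest array of both groups. Egr1, a zinc-finger factor, read 5.63 to 8.47 (median 8.02) in formulation livers and 5.09 to 6.70 (median 6.13) in untreated livers and rose by 1.66 ± 0.41 (adjusted p = 0.00511). Its groups overlapped through replicate 3 alone among the treated arrays, which was within the untreated range, and without it the change was 2.05 ± 0.36. Zfp36, which destabilises cytokine mRNAs, rose by 1.61 ± 0.24, and again replicate 3 was the single treated array that reached into the untreated range. Replicate 3 thus carried low Fos, Egr1 and Zfp36 beside high Plk3 and Gadd45b. Among 20 p53 and DNA damage genes, a list that shares Btg2 and Plk3 with the one above, 7 rose (35%) and 1 fell (5%). In the signal class of their median member 11.5% of genes were called higher and 22.6% lower. Gadd45g, Gadd45b and Gadd45a, small stress-induced growth arrest genes, rose by 1.78 ± 0.26, 1.42 ± 0.28 and 1.0 ± 0.23, and Ddit4, an inhibitor of mTOR signalling, by 0.83 ± 0.22. In the fit that holds array width, 3 AP-1 genes, 5 other immediate early genes and 3 p53 genes were called higher, and 0, 1 and 0 lower. Jun kept a change of 2.09 ± 0.37 (adjusted p = 0.00741), and Fos had 1.35 ± 0.38 (adjusted p = 0.0991).

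The promoter windows of Btg2 and Dusp1 are shown because both carry the full cAMP response element, TGACGTCA, marked in capitals. The motif reads the same on both strands and was counted once per position.
Btg2, chr1:134079156-134079405, strand -: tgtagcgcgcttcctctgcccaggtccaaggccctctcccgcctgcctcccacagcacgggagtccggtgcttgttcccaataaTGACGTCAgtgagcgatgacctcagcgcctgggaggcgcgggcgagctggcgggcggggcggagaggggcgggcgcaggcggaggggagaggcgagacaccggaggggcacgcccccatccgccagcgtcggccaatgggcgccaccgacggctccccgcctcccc
Dusp1, chr17:26508473-26508722, strand -: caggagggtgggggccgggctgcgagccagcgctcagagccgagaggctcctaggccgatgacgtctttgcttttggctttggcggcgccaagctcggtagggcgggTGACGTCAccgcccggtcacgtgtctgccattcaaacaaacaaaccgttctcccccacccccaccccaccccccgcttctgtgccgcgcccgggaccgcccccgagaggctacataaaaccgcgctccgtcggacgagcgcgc
Each window held 1 match, and 1.55% of the 32851 windows hold the motif. Both genes were chosen for holding it and other immediate early genes are not reported, so the matches cannot be weighed against that share. Whether these sites were used in these livers was not measured.

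Zinc-handling genes moved in both directions, and the base held no zinc oxide. Of 28 metallothioneins and zinc transporters 6 rose (21.4%) and 7 fell (25%). In the signal class of their median member 11.5% of genes were called higher and 22.6% lower. Mt1 read 11.58 to 12.65 (median 12.11) in formulation livers, against 9.61 to 11.12 (median 10.46) in untreated livers, a change of 1.71 ± 0.19 (3.27-fold, adjusted p = 3.43e-06). Mt2 read 11.84 to 13.10 (median 12.37) in formulation livers and 9.10 to 11.49 (median 10.41) in untreated livers, a change of 1.97 ± 0.28 (adjusted p = 5.01e-05). The groups lay apart for both, with untreated replicate 1 the lowest array and formulation replicate 3 the highest. Slc39a4, the importer ZIP4, whose mRNA is known to be lost when zinc is plentiful, read 6.76 to 7.08 (median 7.02) in formulation livers, against 7.75 to 8.22 (median 7.98) in untreated livers. It fell, with a change of -1.03 ± 0.10 (adjusted p = 4.48e-07), and all 6 treated arrays lay below all 6 untreated ones within a narrow spread. Slc30a1, the exporter ZnT1 and itself a target of MTF1, read 7.29 to 7.94 (median 7.46) in formulation livers and 7.25 to 7.59 (median 7.44) in untreated livers, with a change of 0.12 ± 0.11 that was not called (adjusted p = 0.432). Slc39a14, the importer ZIP14, which IL-6 induces, rose by 0.54 ± 0.15 (adjusted p = 0.01), and replicate 1 was the highest treated array. Slc30a5, which fills the secretory pathway with zinc, changed by -0.45 ± 0.09 (adjusted p = 0.00124). With the width covariate 2 members were called higher and 1 lower. Mt1 then had a change of 1.41 ± 0.27 (adjusted p = 0.0104) and Slc39a4 of -0.81 ± 0.13 (adjusted p = 0.00319).

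The metallothionein promoter windows are shown because both genes rose, with capitals for the metal response element core, TGCACNC or TGCGCNC on either strand, and for the AP-1 motif TGACTCA.
Mt1, chr8:94178839-94179088, strand +: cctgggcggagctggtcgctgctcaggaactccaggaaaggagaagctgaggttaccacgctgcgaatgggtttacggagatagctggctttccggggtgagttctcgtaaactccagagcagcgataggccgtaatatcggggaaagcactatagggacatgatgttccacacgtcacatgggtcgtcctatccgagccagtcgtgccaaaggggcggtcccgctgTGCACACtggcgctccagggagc
Mt2, chr8:94172368-94172617, strand +: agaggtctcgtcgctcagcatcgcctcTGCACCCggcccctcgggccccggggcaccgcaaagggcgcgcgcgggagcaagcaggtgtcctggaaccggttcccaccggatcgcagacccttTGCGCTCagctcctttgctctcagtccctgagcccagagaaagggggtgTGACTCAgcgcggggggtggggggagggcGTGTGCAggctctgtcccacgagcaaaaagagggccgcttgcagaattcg
Within the bases printed, the Mt1 window held 1 metal response match and 0 AP-1 matches, and the Mt2 window 3 and 1. Each window ends at the annotated start site, and bases outside it were not searched. The counts are therefore not totals for either promoter and do not rank the genes by their elements. Over the 32851 windows 21.4% held the metal response core and 4.46% the AP-1 motif.

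Of 30 iron and heme genes 3 rose (10%) and 9 fell (30%). The median member lies among the brightest genes, of which 4.96% were called higher and 40.3% lower, so the falls do not stand above that share. The risers included Hp and Hpx, already described, and Flvcr1, a heme exporter, at 0.50 ± 0.11. Slc40a1, the iron exporter ferroportin, changed by -0.52 ± 0.10 (adjusted p = 8.12e-04) and Hjv, hemojuvelin, a co-receptor that drives hepcidin, by -0.46 ± 0.13, and both were among the falls. Hepcidin itself, Hamp, had a change of 0.50 ± 0.22 (adjusted p = 0.0827) and was not called. Adjusted for array width, 2 members were called higher and 0 lower.

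Male-biased liver genes fell in the main, while most female-biased genes were not called. Of 22 male-biased liver genes 15 fell (68.2%) and 1 rose (4.55%), with a median change of -0.69. In the signal class of their median member 22.6% of genes were called lower and 11.5% higher. Slco1a1, an organic anion uptake transporter, had the largest fall of all called genes. It read 2.71 to 3.63 (median 3.09) in formulation livers, against 5.46 to 8.49 (median 7.27) in untreated livers, a change of -4.02 ± 0.34 (adjusted p = 6.65e-08). The treated arrays clustered near the dim end of the array, while the untreated arrays spread over several log2 units, with replicate 3 the highest and replicate 1 the lowest. Mup3, a major urinary protein, changed by -2.0 ± 0.28, Hsd3b2, a steroid dehydrogenase, by -1.91 ± 0.19, and Keg1, a glycine N-acyltransferase-like gene, by -1.55 ± 0.13, each without overlap. Hsd3b5, a keto-reductase of the same cluster as Hsd3b2, changed by -1.28 ± 0.23, and untreated replicates 3 and 5 stood above the other untreated arrays. The mean over the list read 6.0 to 6.23 in formulation livers and 6.72 to 7.44 in untreated livers. Of 21 female-biased genes 2 rose (9.52%) and 6 fell (28.6%), so the falls were not met by a rise of the opposite set. The median female-biased gene lies among the brightest genes, of which 4.96% were called higher and 40.3% lower. A1bg changed by -1.60 ± 0.38 (adjusted p = 0.0034) and Hao2, a hydroxyacid oxidase, by -1.05 ± 0.21, while Cyp39a1, an oxysterol hydroxylase, rose by 1.08 ± 0.18 and Cyp17a1, a steroid hydroxylase, by 0.89 ± 0.18. In the fit that holds array width, 9 male-biased genes were called lower and 0 higher, and 2 female-biased genes higher and 0 lower. Slco1a1 kept a change of -4.49 ± 0.48 (adjusted p = 2.34e-05) and Keg1 of -1.49 ± 0.18 (adjusted p = 1.13e-04). Probe sets of the Mup, Hsd3b, Cyp2c, Ugt2b and Ces families may share signal among close paralogs.

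Of 19 growth hormone and IGF genes 4 rose (21.1%) and 5 fell (26.3%). The median member lies among the brightest genes, of which 4.96% were called higher and 40.3% lower, so the falls do not stand above that share. Igfbp1, an IGF-binding protein raised in fasting and stress and held down by insulin, read 9.96 to 11.74 (median 10.87) in formulation livers, against 7.86 to 9.13 (median 8.77) in untreated livers, a change of 2.17 ± 0.33 (adjusted p = 1.01e-04). The groups lay apart, with formulation replicate 3 the highest and replicate 4 the lowest treated array. Igf1, the main growth hormone effector from liver, changed by -0.44 ± 0.07 (adjusted p = 1.01e-04), Igfals, which holds IGF1 in its plasma complex, by -0.75 ± 0.13, Stat5b, which carries the growth hormone signal to the nucleus, by -0.41 ± 0.11, and Irs2, an insulin receptor substrate, rose by 0.53 ± 0.16. The growth hormone receptor Ghr changed by -0.36 ± 0.08 (adjusted p = 0.00235). With the width covariate 1 member was called higher and 0 lower.

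Of 21 glucocorticoid-responsive genes 9 rose (42.9%) and 1 fell (4.76%), but Mt2, Dusp1 and Gadd45b lead this list and stand in the lists above as well. The median member lies among the brightest genes, of which 4.96% were called higher and 40.3% lower. Among the members not yet named, Per1, a clock repressor, rose by 0.79 ± 0.24 (adjusted p = 0.0183), with overlapping groups, and Tat, tyrosine aminotransferase, by 0.51 ± 0.13 (adjusted p = 0.00582). Without formulation replicate 5 the change of Per1 was 0.68 ± 0.25 and was not called (adjusted p = 0.0564). Without formulation replicate 2 or 5 or untreated replicate 1 the list had 6 called members. Adjusted for array width, 2 members were called higher and 0 lower.

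Many drug- and steroid-metabolising enzymes fell. The median member of each list here lies among the brightest genes, so the counts have to be set against the 40.3% called lower among the brightest genes. Of 36 conjugating enzymes 22 fell (61.1%) and 0 rose. Ugt3a1, a UDP-glycosyltransferase, changed by -1.15 ± 0.22, Ugt2b37 by -0.97 ± 0.19, Ugt2b1 by -0.89 ± 0.11, and Sult1b1, a sulfotransferase for thyroid hormones and phenols, by -0.71 ± 0.12. Of 15 carboxylesterases 8 fell (53.3%). Ces3a read 10.15 to 10.78 (median 10.41) in formulation livers, against 11.27 to 12.18 (median 11.70) in untreated livers, a change of -1.33 ± 0.15 (adjusted p = 4.34e-06), and Ces3b changed by -1.18 ± 0.12, both with no overlap. Of 38 cytochrome P450 genes of families 1 to 3 13 fell (34.2%), which does not stand above the share among bright genes. Cyp2c67 changed by -1.44 ± 0.16 (adjusted p = 1.70e-06) with no overlap, and its neighbour Cyp2c68 by -0.81 ± 0.13. In the fit that holds array width, 5 conjugating enzymes, 3 carboxylesterases and 1 member of the cytochrome P450 list were called lower.

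Of 29 glutathione and NRF2 antioxidant genes 11 fell (37.9%) and 0 rose. The median member lies among the brightest genes, and the share does not stand above the 40.3% called lower there. Gclc, the catalytic subunit of the rate-limiting enzyme of glutathione synthesis, read 8.71 to 9.69 (median 9.49) in formulation livers, against 10.21 to 10.42 (median 10.23) in untreated livers, a change of -0.87 ± 0.12 (adjusted p = 3.73e-05). The groups lay apart, and formulation replicate 5 was the lowest array. Gclm, its regulatory subunit, changed by -0.36 ± 0.07, and Nfe2l2, which encodes NRF2, by -0.37 ± 0.09. Nqo1, the usual index gene of NRF2, had a change of -0.19 ± 0.13 (adjusted p = 0.261). With the width covariate 1 member was called lower.

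The 12 largest falls also included Sucnr1, Serpina4-ps1 and Gm21286, beside Ppp1r3c and Slc10a2, which are given below. Sucnr1, the receptor for extracellular succinate, read 3.62 to 4.71 (median 4.19) in formulation livers, against 4.73 to 6.19 (median 5.58) in untreated livers, a change of -1.37 ± 0.22 (adjusted p = 1.71e-04) with no overlap. Serpina4-ps1, a serpin pseudogene, changed by -1.62 ± 0.28 with no overlap, and the predicted gene Gm21286 by -1.67 ± 0.46 (adjusted p = 0.0102) with overlapping groups.

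**Figure D3:**
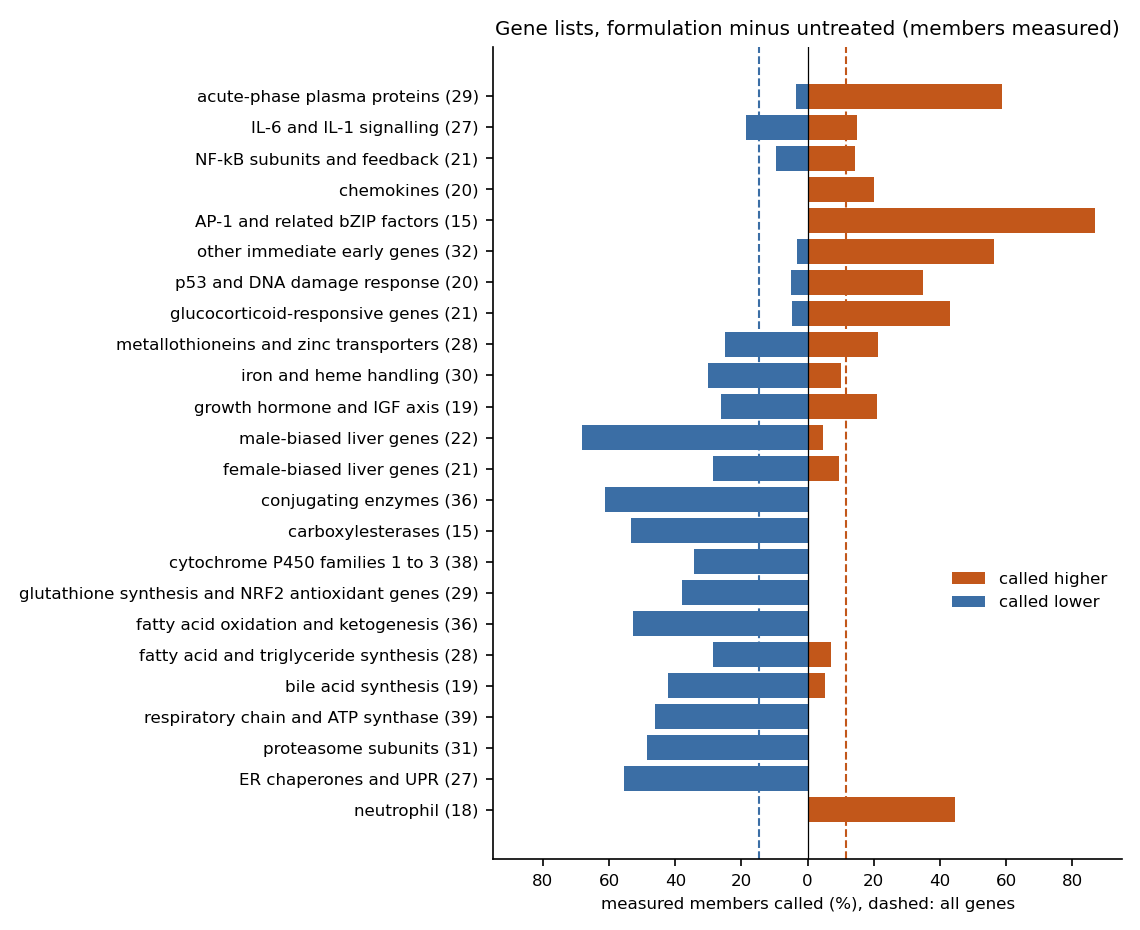
Percentage of the measured members of 24 gene lists called higher (right) and lower (left) in formulation livers, with the same percentages over all 19938 genes as dashed lines (11.6% higher and 14.7% lower). Acute-phase and immediate early lists extend to the right, and lists of conjugating enzymes, male-biased genes and endoplasmic reticulum chaperones extend to the left.

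Lipid and energy lists differed in how many members fell, and their median members also lie among the brightest genes, of which 40.3% were called lower. Of 36 fatty acid oxidation and ketogenesis genes 19 fell (52.8%) and 0 rose. Fabp1, the liver fatty acid-binding protein, changed by -0.64 ± 0.17, Bdh1, a ketone body dehydrogenase, by -0.64 ± 0.12 and Hadhb, of the mitochondrial trifunctional protein, by -0.53 ± 0.08. Pdk4, a fasting-induced kinase of pyruvate dehydrogenase, read 5.39 to 9.84 (median 5.90) in formulation livers and 5.15 to 6.80 (median 5.52) in untreated livers and was not called (change 0.77 ± 0.47, adjusted p = 0.219). Formulation replicate 3 stood far above the other arrays for Pdk4. Of 28 fatty acid and triglyceride synthesis genes 8 fell and 2 rose, among them Me1, malic enzyme, at -0.62 ± 0.13 and Agpat2, an acyltransferase of triglyceride synthesis, at -0.59 ± 0.15, and without formulation replicate 5 that list had 5 called members. Of 19 cholesterol synthesis genes 1 fell and 0 rose (median change 0.05), and of 21 apolipoprotein and lipoprotein genes 3 fell and 1 rose (median change -0.03). Of 23 glucose genes 6 fell and 1 rose. Ppp1r3c, which targets phosphatase to glycogen, changed by -1.56 ± 0.36 (adjusted p = 0.00274), read 4.50 to 7.50 (median 6.49) in formulation livers and 7.29 to 8.48 (median 7.71) in untreated livers, and overlapped through formulation replicate 2. The glucose count was 4 without formulation replicate 2 or 5 or untreated replicate 6. Of 19 bile acid synthesis genes 8 fell and 1 rose. Cyp7b1, the oxysterol hydroxylase of the alternative pathway, changed by -1.0 ± 0.16 with no overlap, while Cyp7a1, the rate-limiting enzyme of the classical pathway, was not called at 0.17 ± 0.24 (adjusted p = 0.611). Slc10a2, an ileal bile acid transporter that cholangiocytes also express, changed by -1.36 ± 0.24 (adjusted p = 4.00e-04). Adjusted for array width, 0 fatty acid oxidation genes, 0 lipid synthesis genes, 0 glucose genes and 0 bile acid genes were called lower.

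Members of large housekeeping groups fell by small amounts. Of 39 respiratory chain and ATP synthase genes 18 fell (46.2%), led by the complex I subunit Ndufs1 at -0.47 ± 0.10, of 31 proteasome subunits 15 fell (48.4%), led by Psmc6 at -0.57 ± 0.13, and of 39 ribosome biogenesis genes 11 fell (28.2%). The ribosome biogenesis count was 7 without formulation replicate 2, 6 without formulation replicate 5 and 4 without untreated replicate 1. For the first 2 lists, whose median members lie among the brightest genes, the share called lower there is 40.3%, and for ribosome biogenesis, whose median member lies in the next signal class, it is 22.6%. With the width covariate 0, 0 and 0 of them were called lower. Endoplasmic reticulum chaperones fell in 15 of 27 (55.6%). Their median member also lies among the brightest genes, of which 40.3% were called lower. Hyou1, a chaperone of the lumen, changed by -0.73 ± 0.20, Sdf2l1 by -0.69 ± 0.17, Pdia6, a disulfide isomerase, by -0.64 ± 0.12, and Hspa5, BiP, by -0.57 ± 0.19 (adjusted p = 0.0257). Hspa5 read 10.028 to 10.884 (median 10.467) in formulation livers and 10.567 to 11.496 (median 11.003) in untreated livers, which overlapped, and the width covariate left 0 of the list called. Without formulation replicate 2, 5 or 6 or untreated replicate 1 or 4 Hspa5 was not called (changes of -0.67 to -0.48 over all arrays left out). Of 26 interferon-stimulated genes 8 fell (30.8%) and 1 rose, beside 22.6% called lower in the signal class of their median member. Stat2, a factor of interferon signalling, changed by -0.55 ± 0.15 and Iigp1, an interferon-induced GTPase, by -0.50 ± 0.14. With the covariate 0 interferon-stimulated genes were called lower.

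Some markers of other cells also differed between the groups. In bulk liver RNA fewer cells of a type and less RNA per cell cannot be told apart. Of 18 neutrophil markers 8 rose (44.4%) and 0 fell. The median marker lies in the signal class next to the dimmest, where 16% of genes were called higher. S100a8, a calprotectin subunit, read 4.66 to 6.42 (median 5.21) in formulation livers, against 4.38 to 4.64 (median 4.51) in untreated livers, a change of 0.95 ± 0.30 (adjusted p = 0.0213), S100a9, its partner, changed by 0.85 ± 0.29 (adjusted p = 0.0297) and Retnlg by 0.71 ± 0.21. Formulation replicates 1 and 3 were highest for both calprotectin genes, as for Cxcl1. Without formulation replicate 1 or 3 neither was called (S100a8 0.75 ± 0.29 and 0.77 ± 0.30, S100a9 0.71 ± 0.29 and 0.65 ± 0.27), nor was S100a9 without untreated replicate 3 or 4. The neutrophil count was 4 without formulation replicate 3, 5 without untreated replicate 3 or 4, and 1 after a further quantile normalization. The mean over the 18 markers read 4.32 to 4.92 in formulation livers and 4.18 to 4.24 in untreated livers, so all markers together are dim in both groups. Rises were not particular to neutrophil markers among lists of that signal class. Of 9 adipocyte and muscle markers 4 rose (44.4%) and 0 fell, and of 15 monocyte and dendritic cell markers 4 rose and 0 fell. Of 13 B and plasma cell markers 3 rose and 1 fell, and of 9 pancreas markers 0 rose and 1 fell. Of 15 T and NK cell markers 2 rose (13.3%) and 0 fell. The part of neutrophil RNA in the rise of Lcn2, which neutrophils also make, was not tested. Of 23 liver endothelial markers 9 fell (39.1%) and 0 rose, led by the lectin Clec4g at -0.60 ± 0.15 (adjusted p = 0.00556). In the signal class of the median endothelial marker 22.6% of genes were called lower. The endothelial count was 4 without formulation replicate 5. Among 7 erythroid markers Alas2, the erythroid enzyme that opens heme synthesis, was the single one called, with a change of -0.89 ± 0.17 and no overlap, while the median change of the list was 0.08. In the fit that holds array width, 1 neutrophil and 0 endothelial markers were called in those directions.

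Clock genes differed from mouse to mouse within the treated group. Of 20 clock and output genes 6 rose (30%) and 1 fell (5%). The median member lies among the brightest genes, of which 4.96% were called higher and 40.3% lower. Ciart, a clock repressor, read 5.01 to 6.71 (median 5.91) in formulation livers, against 4.65 to 5.37 (median 4.86) in untreated livers, and rose by 0.96 ± 0.31 (adjusted p = 0.0219), with replicate 5 highest. Without that array the change was 0.80 ± 0.31 and was not called (adjusted p = 0.0692). Arntl, which encodes the activator BMAL1, read 5.50 to 6.93 (median 6.54) in formulation livers, against 6.82 to 7.36 (median 7.04) in untreated livers, a change of -0.67 ± 0.26 that was not called (adjusted p = 0.052), with replicate 5 lowest. Dbp, an output factor in the opposite phase to Arntl, read 5.70 to 7.59 (median 6.82) in formulation livers and 5.20 to 6.45 (median 6.16) in untreated livers (change 0.77 ± 0.32, adjusted p = 0.0722), with replicate 5 again highest. The times of day at which single mice were killed are not given in the sources used here, and their part in these values was not tested. The clock count was 3 without formulation replicate 5 and 11 without formulation replicate 1. With the width covariate 0 clock genes were called higher and 0 lower.

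**Figure D4:**
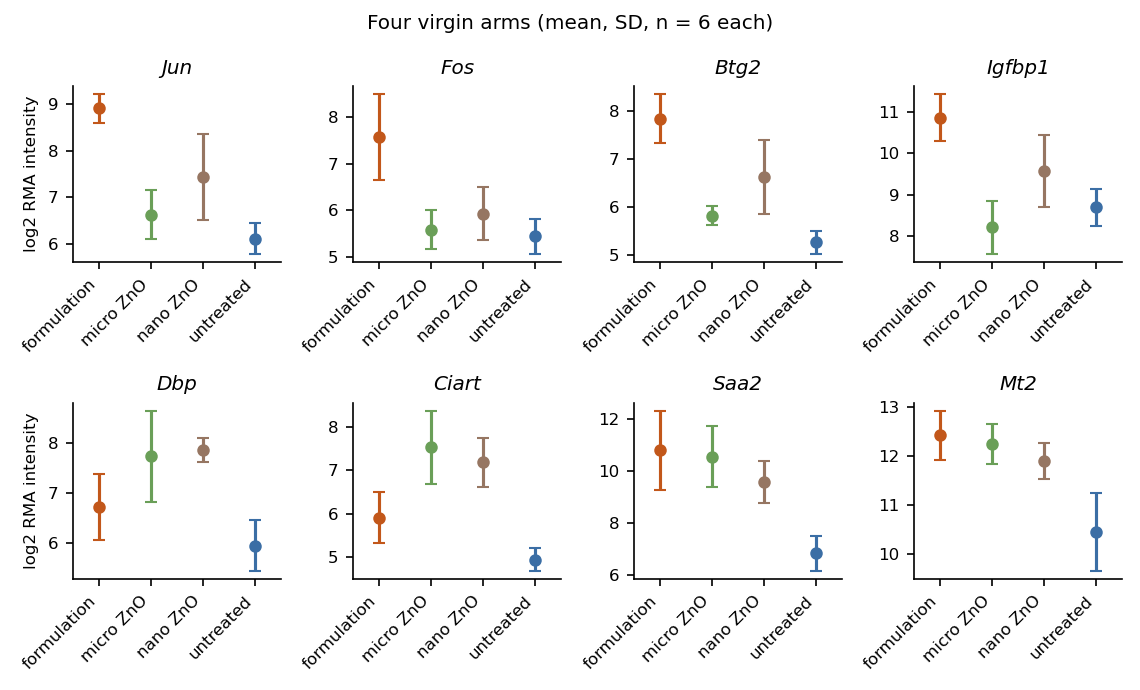
Mean log2 RMA intensity, with error bars of SD, of 8 genes in the virgin formulation, micro ZnO, nano ZnO and untreated arms, 6 arrays each. Jun, Fos, Btg2 and Igfbp1 are highest in the formulation arm, Dbp and Ciart are lower in the formulation arm than in both particle arms, and Saa2 and Mt2 are above untreated in all 3 sunscreen arms.

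The next question was how the particle-free base compared with the particle sunscreens. The formulation arm was set against the mean of the micro ZnO and nano ZnO arms, a contrast that leaves out the untreated mice. Of 23410 probe sets 2122 were called (9.06%), 601 higher (2.57%) and 1521 lower (6.50%) in formulation livers, and by gene 1.92% were higher and 6.46% lower. The count was 1316 without formulation replicate 2 and 1318 without formulation replicate 5. Of 29 acute-phase genes 0 were called higher and 1 lower, and of 28 metallothioneins and zinc transporters 1 was called higher and 4 lower. The rises of Saa2, Orm2 and Mt2 were not among the differences called. Saa2 differed by 0.73 ± 0.48 (95% interval -0.24 to 1.71, adjusted p = 0.37), Orm2 by 0.20 ± 0.26 (interval -0.33 to 0.73) and Mt2 by 0.35 ± 0.24 (interval -0.14 to 0.85), so these arms were not shown to differ, and differences inside those intervals remain possible. Without formulation replicate 4 the Saa2 difference was 1.31 ± 0.40 and was called (adjusted p = 0.039). Slco1a1 differed by -0.31 ± 0.30 (interval -0.92 to 0.31), likewise not called. Against the same untreated mice, which all 3 comparisons share, Saa2 had a change of 3.98 ± 0.55 in formulation livers, 3.73 ± 0.55 in micro ZnO livers and 2.75 ± 0.55 in nano ZnO livers, and Slco1a1 one of -4.02 ± 0.34, -3.74 ± 0.34 and -3.68 ± 0.34 in that order.

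Some immediate early genes did differ. Of 15 AP-1 genes 6 were higher in formulation livers than in particle-arm livers and 0 lower, and of 32 other immediate early genes 9 were higher and 0 lower. Against the shared untreated mice 13 AP-1 genes were called higher in formulation livers, 0 in micro ZnO livers and 6 in nano ZnO livers, and 18, 1 and 6 of the other immediate early genes, where 1.69% of all genes were higher in micro ZnO livers and 4.99% in nano ZnO livers. Jun read 8.44 to 9.27 (median 8.92) in formulation livers, against 5.82 to 7.41 (median 6.66) in micro ZnO livers and 6.57 to 8.60 (median 7.26) in nano ZnO livers, a difference of 1.88 ± 0.25 from the mean of both (adjusted p = 8.65e-05), and its formulation and nano ZnO ranges overlapped. Fos differed by 1.82 ± 0.27 (adjusted p = 1.88e-04), Egr1 by 1.71 ± 0.36 (adjusted p = 0.00372), Btg2 by 1.62 ± 0.22, Atf3 by 1.55 ± 0.21, Nr4a1, an orphan nuclear receptor, by 1.23 ± 0.17 and Ier2 by 1.21 ± 0.20. Igfbp1 was higher by 1.97 ± 0.29 (adjusted p = 1.87e-04), and Ppp1r3g, a glycogen-targeting subunit active after feeding, by 1.16 ± 0.29. The mean difference of Pdk4 was 1.52 ± 0.41 (adjusted p = 0.0188), and without formulation replicate 3, the highest array, the difference was 0.85 ± 0.21 (adjusted p = 0.0122).

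The clock list ran the other way, with 10 of 20 genes lower and 2 higher in formulation livers than in particle-arm livers. Ciart differed by -1.46 ± 0.26 (adjusted p = 0.00138), Dbp by -1.07 ± 0.28, Nampt, the rhythmic NAD salvage enzyme, by -1.0 ± 0.17, Wee1, a mitotic inhibitor kinase under clock control, by -0.97 ± 0.19 and Usp2, a ubiquitin protease, by -0.94 ± 0.23. Arntl and Nfil3, whose transcripts peak in the opposite phase, were higher by 0.91 ± 0.22 and 1.03 ± 0.19. Ciart read 5.01 to 6.71 (median 5.91) in formulation livers, against 6.29 to 8.66 (median 7.48) in micro ZnO livers, 6.54 to 7.88 (median 7.0) in nano ZnO livers and 4.65 to 5.37 (median 4.86) in untreated livers, so the formulation median lay between the untreated and the particle-arm medians. Without formulation replicate 1 the Dbp difference was -0.87 ± 0.28 and was not called (adjusted p = 0.0542). Among lipid genes 13 of 36 oxidation genes and 7 of 19 cholesterol genes were lower in formulation livers than in particle-arm livers, beside 6.46% of all genes. The median members of both lists and of the clock list lie among the brightest genes. Without dim probe sets this comparison called 449 higher and 1793 lower. The share called lower among bright genes was not computed for it, so these counts cannot be set against that share. Cyp4a14, a fatty acid omega-hydroxylase and PPARA target, differed by -1.48 ± 0.35 (adjusted p = 0.00904), Cyp4a31 by -1.05 ± 0.18, Acot3, a peroxisomal thioesterase, by -1.03 ± 0.20, Fmo2, a flavin monooxygenase, by -0.99 ± 0.18 and Nmrk1, a nicotinamide riboside kinase, by -0.96 ± 0.14. Slc39a4 was higher by 0.29 ± 0.09 (adjusted p = 0.0374) and Slc30a1 lower, with a difference of -0.32 ± 0.09 (adjusted p = 0.0281), in formulation livers. Both calls were narrow: Slc39a4 lost its call without formulation replicate 1, 2, 3, 4 or 6, micro ZnO replicate 6 or nano ZnO replicate 4 (differences of 0.25 to 0.33 over all arrays left out), and Slc30a1 without formulation replicate 1, 2, 4 or 6 (-0.40 to -0.27). Array width differed between these arms as well, and with the width covariate 403 probe sets were called.

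The last comparison asked whether virgin mice answered the base as pregnant mice did, from the interaction of treatment and reproductive state over all 46 arrays. It called 34 probe sets (0.145%), 16 with a larger value in virgin mice (0.0683%) and 18 with a smaller one (0.0769%), and 20 without virgin untreated replicate 4 and 18 without pregnant untreated replicate 1. In pregnant mice alone formulation minus untreated called 14 probe sets (0.0598%). The arrays of the 2 experiments appear to have been normalized separately, so levels are not set side by side across them and only the responses are. Jun had a response of 2.79 ± 0.29 in virgin mice, against -0.39 ± 0.29 in pregnant mice, an interaction of 3.18 ± 0.43 (adjusted p = 7.46e-05). Btg2 had 2.58 ± 0.25 in virgin mice and -0.09 ± 0.31 in pregnant mice (interaction 2.67 ± 0.42, adjusted p = 8.51e-04), and Fos 2.14 ± 0.31 and -0.02 ± 0.16 in the same order (interaction 2.17 ± 0.38, adjusted p = 0.00334). Dusp1, Egr1, Atf3, Zfp36, Ier2 and Nr4a1 followed, with interactions of 2.59 ± 0.58, 2.52 ± 0.57, 2.35 ± 0.40, 1.91 ± 0.32, 1.53 ± 0.30 and 1.42 ± 0.26. Mt1 had a response of 1.71 ± 0.19 in virgin mice, against 0.51 ± 0.13 in pregnant mice, an interaction of 1.20 ± 0.25 (adjusted p = 0.0205), whereas for Mt2 the interaction of 1.21 ± 0.36 was not called (adjusted p = 0.188).

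Negative interactions included metabolic genes that fell in virgin mice. Slc10a2 had a response of -1.36 ± 0.24 in virgin mice, against 0.37 ± 0.23 in pregnant mice (interaction -1.73 ± 0.35, adjusted p = 0.0187). The interactions of Keg1, Hsd3b2, Cyp2c67 and Ces3a were -1.48 ± 0.33, -1.46 ± 0.31, -1.43 ± 0.26 and -1.06 ± 0.23. The others named were Vamp7, a vesicle fusion protein, at -1.10 ± 0.22, C8b, a membrane attack complex component, at -0.77 ± 0.16, Apoa4, an apolipoprotein, at -0.71 ± 0.14, Ugt2b38 at -0.67 ± 0.13 and Ntrk2, a neurotrophin receptor, at -0.66 ± 0.15. In pregnant mice Ntrk2 was dim, at 3.27 to 3.46 in formulation livers and 3.31 to 3.52 in untreated livers, so a fall there could be missed. Left out one at a time, single arrays ended several of the interaction calls. Those of Jun, Btg2, Fos, Atf3, Zfp36, Nr4a1, Cyp2c67, Ugt2b38 and Vamp7 remained without each array in turn. Mt1 was not called without virgin untreated replicate 4 (1.14 ± 0.25) or pregnant untreated replicate 2 (1.09 ± 0.25), Ier2 without pregnant untreated replicate 1 (1.31 ± 0.29), Slc10a2 without pregnant untreated replicate 4 (-1.44 ± 0.33) and Apoa4 without pregnant untreated replicate 5 (-0.64 ± 0.14). Of 23 such fits Dusp1 lost its call in 16, Egr1 in 17, Keg1 in 14, Ntrk2 in 13, Ces3a in 11, C8b in 9 and Hsd3b2 in 8. Adjusted for array width, 12 probe sets were called, among them Jun, Btg2, Fos, Atf3, Zfp36, Nr4a1, Cyp2c67 and Ugt2b38. The acute-phase genes showed no called interaction. Saa1 had a response of 3.84 ± 0.52 in virgin mice and 3.99 ± 0.40 in pregnant mice (interaction -0.15 ± 0.71, adjusted p = 0.971), Saa2 of 3.98 ± 0.55 and 3.68 ± 0.40, and Orm2 of 3.08 ± 0.30 and 3.06 ± 0.20, and each was called in both states. Slco1a1 had -4.02 ± 0.34 in virgin mice and -1.83 ± 0.56 in pregnant mice, and the interaction of -2.19 ± 0.68 was not called (adjusted p = 0.215).

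**Figure D5:**
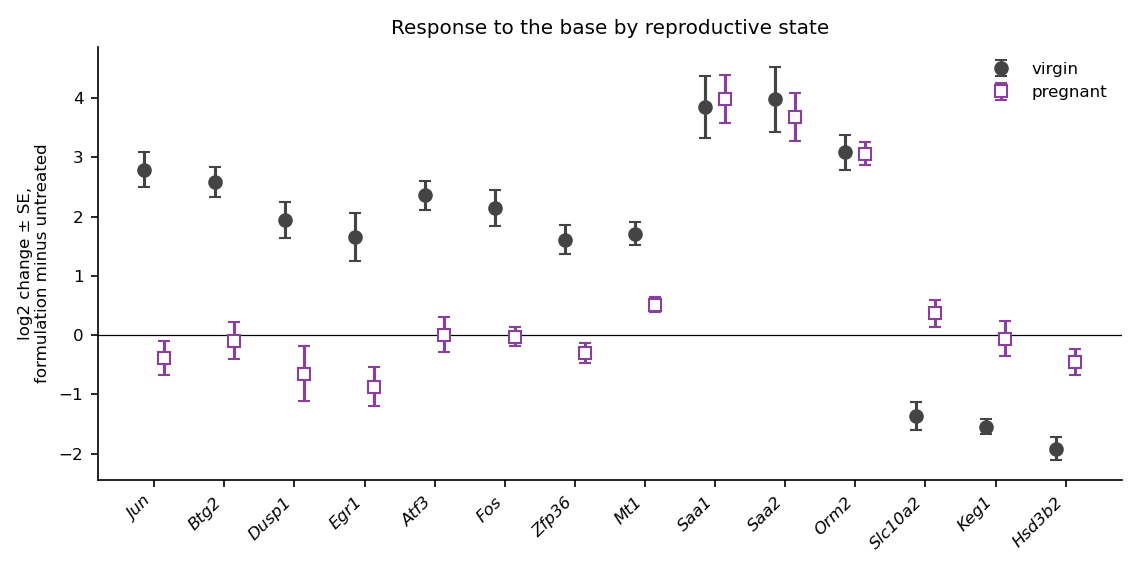
Log2 change with its standard error, formulation minus untreated, in virgin (left marker of each pair) and pregnant mice (right marker) for 14 genes. Immediate early genes rose in virgin mice and lay near or below 0 in pregnant mice, while Saa1, Saa2 and Orm2 rose in both.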

How the data were processed

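Each of the 46 liver RNA samples was run on its own Affymetrix whole-transcript array, and the 24 virgin arrays entered the main fit. The deposited values are log2 intensities made by the authors with RMA of unstated version (per the submitters' processing notes). The arrays came without detection calls, and their number limits the precision. Of 35512 probe sets 23410 had a gene symbol and were tested. Symbols came from the platform annotation and were checked against GRCm38.p6 gene identifiers. A gene with several probe sets is shown by the brightest.

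A linear model with the 4 virgin arms was fitted with limma 3.58.1 in R 4.3.3. A model with all 8 groups gave the interaction. Benjamini-Hochberg adjustment ran over all 23410 probe sets, and 0.05 was the threshold. Array width was compared with an exact permutation test in scipy 1.17.1. The fits were tested on simulated data. The 50 gene lists, the members and the naming rule (12 largest called changes each way, 10 each way for the other comparisons, up to 5 called members of a list, or the smallest p where none was called, and 12 genes always) were chosen with earlier results of these data known. Not all genes that fit this rule are printed, and list members outside it carry values alone. The p values set group differences against the spread between these mice and treat each mouse as independent. Labels do not say whether mice shared litters or cages beyond single housing, so that independence could not be checked.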

Additional observations from a re-analysis of the deposited data

Results flagged for a closer look

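Among 118 genes named for formulation against untreated, 25 of 236 gene and group combinations (10.6%) had 1 array farther from its nearest neighbour than the 95% limit of Dixon's test for 6 values, where chance gives about 5%. Genes that move together are not separate cases. Formulation replicate 5 held 12 of them. It was the lowest formulation array for Agpat2 (8.30), Cyp2c67 (6.99), Cyp2c68 (7.18), Gclc (8.71), Gclm (8.86), Ndufs1 (7.92), Psmc6 (7.10), Stat5b (7.01), Ugt2b1 (9.20) and Vamp7 (6.24), and the highest for Cyp7a1 (10.92) and Flvcr1 (6.29). Formulation replicate 3 was the highest for Il1b (6.05), Pdk4 (9.84) and Ppp1r3g (9.64) and the lowest for Zfp36 (7.56). Formulation replicate 4 was the lowest for Saa1 (6.41), Saa2 (7.93) and Orm2 (9.53). Formulation replicate 1 was the lowest for Fmo2 (6.37). In the untreated group replicate 6 was the highest for Gadd45g (7.57) and Ier2 (6.37), replicate 1 the highest for Tlr4 (3.85), replicate 2 the lowest for Ndufs1 (8.62) and replicate 5 the lowest for Lcn2 (6.77).

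The response to the base differed between virgin and pregnant mice by the interaction test for 20 named genes. The interaction, virgin minus pregnant, was positive for Jun (3.18), Btg2 (2.67), Dusp1 (2.59), Egr1 (2.52), Atf3 (2.35), Fos (2.17), Zfp36 (1.91), Ier2 (1.53), Nr4a1 (1.42) and Mt1 (1.20). It was negative for Slc10a2 (-1.73), Keg1 (-1.48), Hsd3b2 (-1.46), Cyp2c67 (-1.43), Vamp7 (-1.10), Ces3a (-1.06), C8b (-0.77), Apoa4 (-0.71), Ugt2b38 (-0.67) and Ntrk2 (-0.66).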

How the results depend on the processing

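For formulation against untreated the count of 6203 probe sets lay between 4344 and 6772 with each virgin array left out. It was 5773 without dim probe sets, 3971 after a further quantile normalization, 179 with array width as a covariate and 352 with a change of at least 1.5-fold. Because width and group moved together, that covariate also takes up part of the group difference. For formulation against the particle arms the count of 2122 ran from 1316 to 2432 with arrays left out, and was 403 with the width covariate and 114 at 1.5-fold. For the interaction the count of 34 ran from 18 to 43 with arrays left out, and was 12 with the width covariate. The array width difference of -0.14 ran from -0.15 to -0.12 with arrays left out. It was -0.21 over probe sets with a symbol and -0.056 for the standard deviation of an array, and on both measures the groups overlapped through formulation replicate 3 and untreated replicate 2 (exact two-sided permutation tests, p = 0.00433 for both). Groups share replicate numbers, but same-numbered formulation and untreated arrays deviated together with correlations of -0.24 to 0.04, and 0 of 6 arrays correlated best with their own number, so the numbers do not pair the mice. With replicate number as a block the counts were 4806, 1397 and 11 in the order of comparisons above. No direction of a called named gene reversed under any alternative run. Arrays carry no depth, and dim genes with values near background show smaller changes than the RNA may have had.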
